A study of Mus musculus with 24 samples.

Results

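This section describes 786 enhancer regions of normal mouse granulocyte-monocyte progenitors (GMP) that have no counterpart in the leukemia enhancer lists but lie beside a leukemia enhancer. They were selected on 2 measured properties of the deposited lists. Each was in the list of enhancers lost in tumor, and each lay at a gap of 12.5 kb or less from a region of the k+ or the k- leukemia list. The rule took chromosomes 1 to 19 and left out the start of chromosome 11, below position 3100000. Of the 1504 lost regions, 1353 met the chromosome rule, and 786 of these were within the distance; the other 567 lost regions were farther away. The 151 lost regions outside the chromosome rule were 95 on X, 41 on Y and 15 at the start of chromosome 11. The 786 regions were 23.6% of the 3332 GMP enhancer regions of the series.

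The series profiled bone marrow cells of C57BL/6 mice by ChIP-seq, which sequences DNA bound to a chosen histone mark or protein. GMP, leukemia stem cells (LSC) and the mature cells of the acute myeloid leukemia (mAML) each had libraries of H3K27ac, H3K4me1, H3K4me3 and input, and LSC were also sampled untreated and at 24, 48 and 72 hours of A-485, a p300/CBP acetyltransferase inhibitor. The leukemia cells carried MLL-AF10 and were kept in culture in medium conditioned by WEHI cells; no treatment is given for the GMP. Every group had 1 sample. The lists used below give positions only, on mm9, with 0 columns of signal, so no region's read depth is known. Region coordinates are written here as counted from 1. The word "lost" means that no base pair was shared with a region of k+ or k-. What k+ and k- stand for is not stated in the labels, and the lists are called by these names.

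Enhancers are stretches of DNA, often far from the gene they act on, where transcription factors gather and raise transcription. H3K4me1 is found at enhancers whether active or poised, H3K27ac at active ones, and H3K4me3 mainly at promoters. GMP give rise to neutrophils and monocytes. MLL-AF10 joins the DNA-binding part of MLL to AF10, a partner linked to the histone methyltransferase DOT1L, and keeps progenitor programmes active. Enhancers of a gene often lie in groups, so a region missing from a list at one position can have neighbours in the same list.

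On the chromosomes used, 1353 of 3164 GMP regions were lost, a share of 42.8% (95% interval 41.03 to 44.5%). Of these lost regions, 58.1% (55.4 to 60.7%) lay beside a leukemia region, which is the rule itself. Among the 1811 GMP regions that met a leukemia region, here called kept, 73.1% (71.0 to 75.1%) had a further, non-overlapping leukemia region within the same distance. The difference was 15.02 percentage points, and since the gap is what chose the 786, it is a description. Where 50% of both regions had to overlap, 77.7% of lost and 69.5% of kept regions had a neighbour. In that setting a leukemia region that overlapped a lost region counted as its neighbour, while those that overlapped kept regions were left out. The 2 shares are thus not counted alike and do not show whether the order depends on what counts as kept. In the main setting, the order at 12.5 kb was reversed close to the region. There 32.8% (30.3 to 35.4%) of lost and 12.9% (11.4 to 14.6%) of kept regions had such a neighbour within 1000 bp. For a kept region the gap ran to a leukemia region other than the one it overlapped, so short gaps do not measure the same thing in the 2 classes. At 5000 bp the shares were 46.5% (43.8 to 49.2%) and 49.97% (47.6 to 52.3%), with overlapping intervals. Neighbouring regions are not independent, so intervals are exact for counting error only and too narrow.

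Most of the 786 regions lay much closer to leukemia regions than the rule asked. All positions fall on a grid of 200 bp. At a gap of 0, where the GMP region ended at the very position at which a leukemia region began, or the reverse, there were 166 regions, or 21.1% (18.3 to 24.1%). One grid step away, at 200 bp, there were 113 more, then 72 at 400 bp, 37 at 600 bp, 37 at 800 bp and 19 at 1000 bp. In all, 444 regions, or 56.5% (52.9 to 59.99%), were within 1000 bp and 80.03% (77.1 to 82.8%) within 5000 bp. The median gap was 800 bp, with quartiles of 200 and 3800 bp. With leukemia regions of at least 800 bp only, 13.7% of the regions beside one touched it.

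On the other side of the edge, 442 kept regions shared only 200 bp with leukemia regions. Of these, 288 were themselves 200 bp wide and thus wholly inside, and 154 were wider and met the leukemia region in 1 grid step. The 166 regions that touched without overlap include regions of 200 bp, which the 154 leave out. Of the 166, 112 were at least 400 bp wide. Whether the 154 met the leukemia region at an edge or enclosed a narrow one was not tested. These counts therefore do not show whether regions were equally frequent on either side of the edge. Had touching regions been counted as kept, the lost share of GMP regions would have been 37.5% (35.8 to 39.2%). Counting gaps of up to 200 bp as kept gave 33.9%, and up to 1000 bp 28.7% (27.2 to 30.3%). At the far limit of the rule the counts were small and changed little. The last region inside lay at 12400 bp and the first outside at 12600 bp, where there were 3. Between 10 and 12.5 kb lay 50 regions, and between that limit and 15 kb 39.

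**Figure D1:**
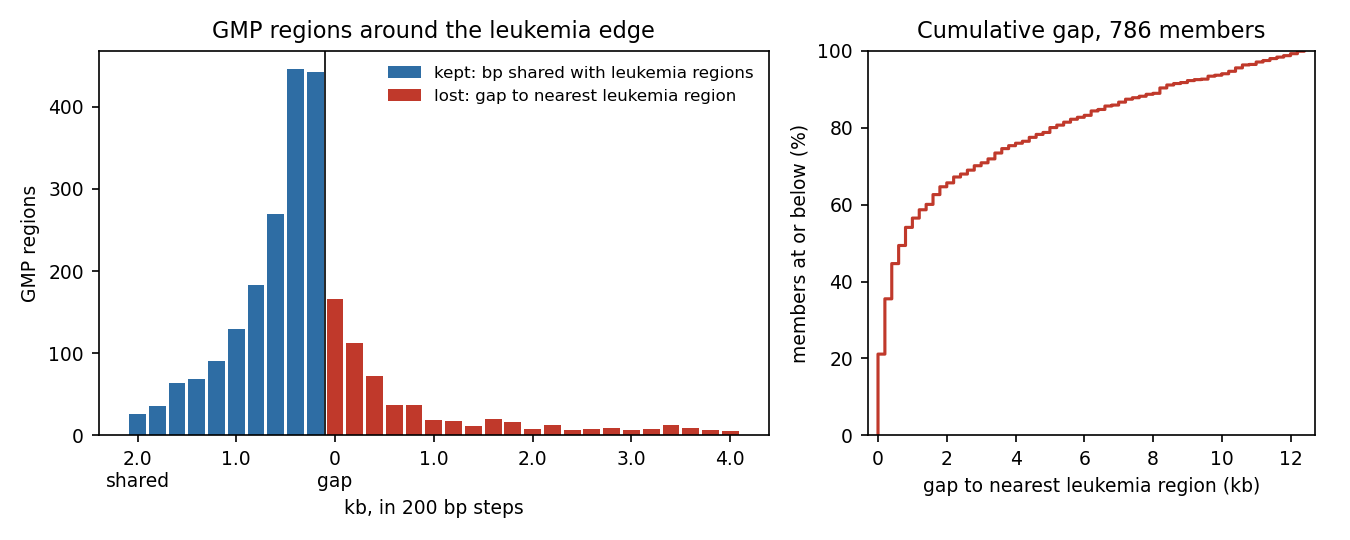
Left, GMP regions on the chromosomes used, by the base pairs shared with leukemia regions (kept, up to 2.0 kb shown) or by the gap to the nearest one (lost, up to 4.0 kb shown), in steps of 200 bp. Right, the cumulative share of the 786 lost regions by gap in kb. Counts fall steeply from 166 regions at a gap of 0 to 19 at 1000 bp.

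Near misses of this kind also occurred between the leukemia lists. Against the same partner list, k-, 10.6% (9.16 to 12.2%) of the 1599 GMP regions without k- overlap touched a k- region, and 8.13% (7.26 to 9.07%) of the 3628 k+ regions without k- overlap did. Within 1000 bp the shares were 30.4% (28.1 to 32.7%) for GMP and 23.3% (21.9 to 24.7%) for k+. Within 12.5 kb the order was the opposite, with 54.4% (51.9 to 56.9%) for GMP and 59.2% (57.6 to 60.8%) for k+. With k+ as the partner, 6.32% (5.27 to 7.5%) of the 1915 GMP regions without k+ overlap touched a k+ region, and 3.56% (3.17 to 3.98%) of the 8233 k- regions did. Within 1000 bp these shares were 20.9% (19.1 to 22.8%) and 11.3% (10.7 to 12.05%), and within 12.5 kb 43.3% (41.1 to 45.6%) and 43.4% (42.3 to 44.4%). The higher share of GMP regions within 1000 bp was thus found with both partners, and the opposite order within 12.5 kb with k- alone. Of gained leukemia regions, which share no base pair with GMP, 1.29% (1.12 to 1.48%) touched a GMP region and 20.2% (19.6 to 20.9%) had one within 12.5 kb. The GMP list is far shorter than the merged leukemia list, so these last shares cannot be set against those of the lost regions.

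At the distance of the rule, both leukemia lists lay near most of the regions. With a gap of 5000 bp, 48.5% of the 629 regions beside leukemia had both lists in reach. The split rests on the gaps that the rule used. It is not given here for kept regions, so it is no trait of the lost ones. Of the 786, 443 or 56.4% (52.8 to 59.9%) had both k+ and k- regions within 12.5 kb, 261 or 33.2% (29.9 to 36.6%) had k- only, and 82 or 10.4% (8.38 to 12.8%) had k+ only. The median gap was 5200 bp to k+ (quartiles 800 and 25950 bp) and 1400 bp to k- (200 and 6750 bp). The k- list was nearer for 506 regions, k+ for 219, and 61 were equally far from both. The k- list is the longer one. With only its widest regions used, as many as k+ has, 688 lost regions were within the distance. Of these, k- was nearer for 53.3%, in place of 64.4% of the 786, and the shares with k+ only and k- only were 18.8% and 23.7%. That setting matches the number of regions and not the length they cover. The regions with both lists, k+ alone or k- alone in reach had a median width of 400 bp in each case.

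**Figure D2:**
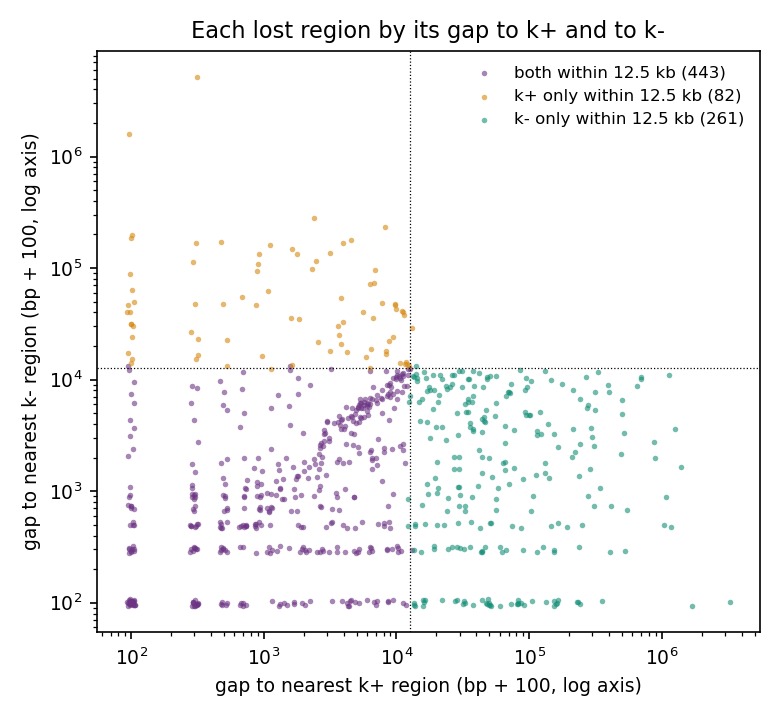
Gap of each of the 786 lost regions to the nearest k+ region (x) and k- region (y), both on log axes after adding 100 bp, with a small horizontal and vertical scatter so that equal values can be seen. Dotted lines mark 12.5 kb. The 443 regions near both lists fill the lower left, and those of 1 list alone, 82 for k+ and 261 for k-, the outer strips.

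The nearest leukemia region came from the lists about as leukemia regions do in general. After merging k+ and k-, it was in both lists for 29.9% (26.7 to 33.2%) of the 786, in k+ only for 18.8% (16.2 to 21.7%) and in k- only for 51.3% (47.7 to 54.8%). Among all 16618 merged leukemia regions on these chromosomes the shares were 32.2%, 20.1% and 47.8%. These lie within or next to the intervals, so the identity of the neighbour was near the background. The nearest region was somewhat narrower than leukemia regions in general. Its median width was 600 bp (quartiles 400 and 1400 bp), against 800 bp (400 and 1600 bp) for all leukemia regions. No interval is given for these medians.

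Most neighbours were gained regions. For 668 of the 786 the nearest leukemia region met no GMP region, and for 118, or 15.01% (12.6 to 17.7%), it was itself kept, that is, it coincided with another GMP region. The share of kept regions among all merged leukemia regions was 10.01% (9.55 to 10.5%), below that interval. With leukemia regions of at least 800 bp only, the nearest was kept for 23.3% of the 553 regions beside one. The kept share among all leukemia regions of that width was not computed, so this value cannot be set against 10.01%. At a gap of 0 only 12 of 166 nearest regions were kept, or 7.23% (3.79 to 12.3%). That share was 16.2% for gaps of 200 to 1000 bp, 17.3% for 1200 to 5000 bp and 18.5% above.

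The regions often sat among several leukemia regions, as did kept regions beside a further one. A single one lay within the distance of 315 regions, 2 of 191, 3 of 125, 4 of 78, and 5 or more of 77, up to 10. The median was 2, with quartiles of 1 and 3, and the same held for further neighbours of the 1324 kept regions that had any. Leukemia regions lay on both sides of 314 regions, or 39.9% (36.5 to 43.5%), near the 38.4% (35.8 to 41.1%) of those kept regions. Of the 471 members with at least 2 neighbours, 66.7% (62.2 to 70.9%) had them on both sides. That was close to 63.0% (59.6 to 66.3%) of the 808 kept regions with at least 2 further neighbours. Only 6 regions were touched on both sides, so that they exactly filled the space between leukemia regions. Within 12.5 kb lay a median of 1700 bp of leukemia sequence (quartiles 625 and 3900 bp). The 786 regions, 408 kb long in all, had 1563 different leukemia regions near them, 9.41% of the merged list, of which 1346 were gained. The 786 nearest neighbours were 717 different regions, since 133 members shared theirs with another.

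Width did not separate lost regions beside a leukemia region from those far away. Both sets had a median of 400 bp and quartiles of 200 and 600 bp, against a median of 600 bp and quartiles of 400 and 1200 bp for kept regions. Regions of 200 bp made up 33.7% (30.4 to 37.1%) of the 786, 30.3% (26.6 to 34.3%) of the far ones and 15.9% (14.2 to 17.7%) of kept regions. Regions of 1000 bp or more made up 13.5%, 13.9% and 35.3%. In each width class the share of lost regions beside leukemia stayed below that of kept regions. It was 60.6% (55.9 to 65.3%) at 200 bp, 53.4% (48.5 to 58.2%) at 400 bp and 51.9% (42.0 to 61.6%) at 1200 bp or more, with 65.5% (58.5 to 72.0%) at 800 to 1000 bp, so that it showed no steady course with width. For kept regions it lay between 69.3% and 75.5%. The intervals met at 600 bp and at 800 to 1000 bp. Width was also similar at every distance, with a median of 400 bp from the touching regions to those beyond 5000 bp.

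**Figure D3:**
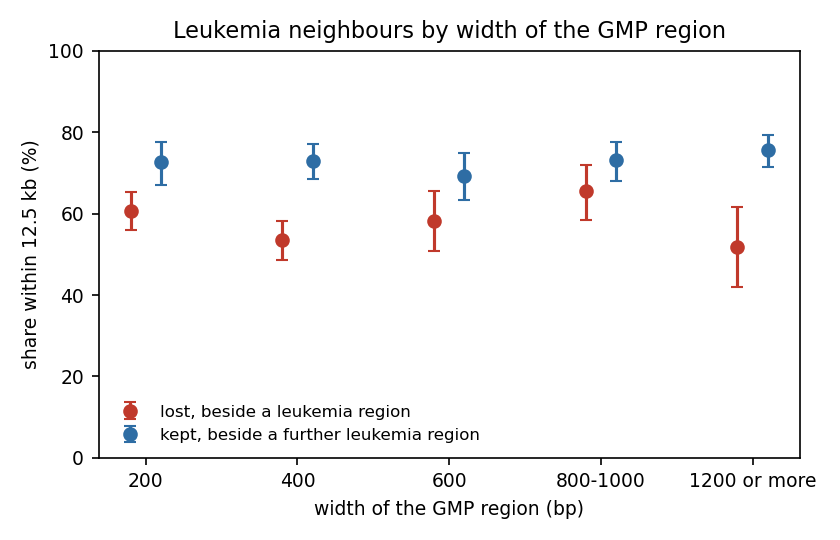
Share of lost regions beside a leukemia region (red) and of kept regions beside a further one (blue), in percent, by width of the GMP region in bp. Bars are exact 95% intervals. Lost regions range from 51.9 to 65.5% and kept regions from 69.3 to 75.5%.

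Many of the 786 had other GMP regions near them, and some joined up with a kept region when short gaps were bridged. Another GMP region lay within 12.5 kb of 339, or 43.1% (39.6 to 46.7%), against 41.3% (39.0 to 43.6%) of kept regions. Far lost regions are not set beside these, because the rule leaves them hardly any room for a kept neighbour. The rule also asked for a leukemia region near each of the 786, but not for a further leukemia region near kept regions. Since kept GMP regions overlap leukemia regions, it can raise any share of the 786 that counts kept neighbours. These shares therefore do not show whether lost and kept regions have GMP neighbours equally often. Another lost region, which the rule does not ask about, lay near 23.2% (20.2 to 26.3%) of the 786, near 18.3% (15.2 to 21.8%) of far regions and near 12.8% (11.3 to 14.4%) of kept regions. The first intervals overlap, and both lost sets stood above the kept set. A kept GMP region lay within 12.5 kb of 209 of the 786, or 26.6% (23.5 to 29.8%), and within 1000 bp of 58. Among kept regions, 33.5% (31.3 to 35.7%) had another kept region within 12.5 kb, which was above the share of the 786. In 52 cases, or 6.62% (4.98 to 8.59%), both a kept and a further lost region were near. For kept regions that share was 4.91% (3.96 to 6.01%), with overlapping intervals. When GMP regions up to 1000 bp apart were first joined, 68 of the 786, or 8.65% (6.78 to 10.8%), became part of a unit that met a leukemia region. At 200 bp that number was 26.

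Beyond the distance of the rule, leukemia regions covered more of the sequence around the 786 than around far lost regions, and less than around kept regions. Between 12.5 and 50 kb from the edge, k+ regions covered 2.52% of the sequence around the 786, 0.732% around far lost regions and 2.91% around kept regions. For k- the values were 3.75%, 1.26% and 4.46%. All of chromosomes 1 to 19 had a cover of 0.415% by k+ and 0.673% by k-, so even far regions lay in stretches above the average. Regions beside leukemia exceeded far ones on 19 of 19 chromosomes for both lists, and kept ones on 7 of 19 for k+ and 5 of 19 for k-. The rule chose on the same lists at shorter distance, so these values are not independent of it.

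The GMP list, which the rule did not use for distance, covered 0.640% of the sequence between 12.5 and 50 kb from the 786, 0.294% around far regions and 0.674% around kept regions, and exceeded the far value on 18 of 19 chromosomes and the kept value on 11. With all chromosomes taken, the first 2 values were 1.16% and 1.07%. Kept GMP regions made up most of this difference, with 0.493% around the 786 and 0.168% around far regions. They are defined by overlap with k+ and k-, so this part is not independent of the rule either. Lost GMP regions covered 0.147% and 0.126%, against 0.141% around kept regions, and were higher around the 786 than around far regions on 12 of 19 chromosomes. The density of other lost regions at this distance was thus nearly the same in all 3 sets.

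**Figure D4:**
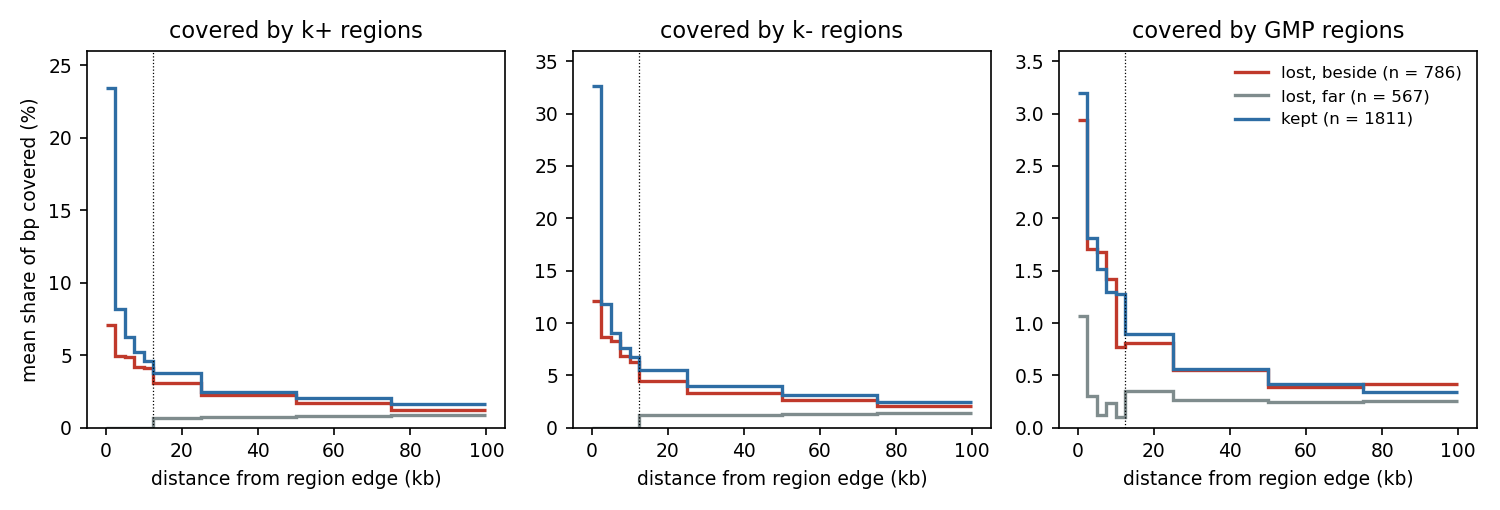
Mean share of base pairs covered by k+, k- and GMP regions, in percent, by distance in kb from the edge of lost regions beside leukemia (red), far lost regions (grey) and kept regions (blue). The dotted line marks the distance of the rule, inside which far regions have no leukemia cover by construction. Between 12.5 and 50 kb the cover by k- is 3.75% for red, 4.46% for blue and 1.26% for grey.

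Across chromosomes the regions were a similar part of the lost ones, and they were fewer in dark bands than the length of those bands. The share of lost regions beside leukemia ranged from 49.1% (35.4 to 62.9%) on chromosome 14 to 69.4% (54.6 to 81.7%) on chromosome 18, and every chromosome's interval held the overall share of 58.1%. Unstained Giemsa bands, which tend to be rich in genes, held 48.1% (44.5 to 51.6%) of the 786, 42.2% (38.0 to 46.3%) of far regions and 47.4% (45.1 to 49.7%) of kept regions. Such bands make up 41.2% of these chromosomes. The darkest bands, 31.2% of the sequence, held 19.1% (16.4 to 22.0%), 24.9% (21.4 to 28.6%) and 21.1% (19.2 to 23.0%). For the 786 both intervals lay outside the band's share of the sequence, while the intervals of the 786 and the far regions overlapped for both kinds of band. Band length includes sequence to which reads may not map, which was not tested.

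Touching regions illustrate how narrowly a region could be classed as lost. The widest were 5 regions of 1400 bp, of which the first 3 in the order of chromosome names are described in full. The region chr12:32702201-32703600, in band qA3, began where a gained region of 800 bp in both lists ended. It touched k+ and lay 200 bp from k-, with 3 leukemia regions within 12.5 kb, all on the same side. On chromosome 17 in band qB3, chr17:44375801-44377200 ended at a k+ region of 200 bp and had no other leukemia region within the distance, the nearest k- region being 192400 bp away. The third, chr3:107902801-107904200 in band qF2.3, began at a k+ region of 200 bp and was 30400 bp from k-. On chromosome 17 a single grid unit of 1 leukemia list thus brought the region into the set, whereas the region on chromosome 3 had a further k+ region within the distance. The other two of this width lay on chromosome 6. The region chr6:40840601-40842000 touched a k- region of 400 bp, its only leukemia neighbour, and was 127400 bp from k+. The region chr6:99156401-99157800 touched a k+ region of 400 bp, lay 3200 bp from k- and had 3 leukemia regions nearby.

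The regions with the most leukemia neighbours were chosen for that number, so their dense surroundings are no finding. The region chr2:170030601-170030800, in band qH3, was 200 bp wide and touched a k- region of 400 bp. Within its distance were 10 leukemia regions, made of 6 k+ and 8 k- regions before merging, and 1 other GMP region, also lost. In the same band, chr2:170046201-170047400 had 7, with a k+ region at 200 bp and the nearest k- region at 2800 bp. The region chr12:56058601-56060600 in band qC1, 2000 bp wide, had 9 leukemia regions covering 9100 bp around it and was 400 bp from k+ and 1600 bp from k-. On chromosome 7 in band qD1, chr7:75293601-75294400 also had 9, covering 11900 bp, and lay 200 bp from a gained region of 2000 bp in both lists. The region chr13:49402201-49403000 in band qA5 had 7 leukemia regions and 1 kept GMP region nearby. In all, 5 regions had 7, of which the 2 widest are given. All 5 described here had leukemia regions on both sides, which follows in part from their number. The nearest one was gained in each case.

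**Figure D5:**
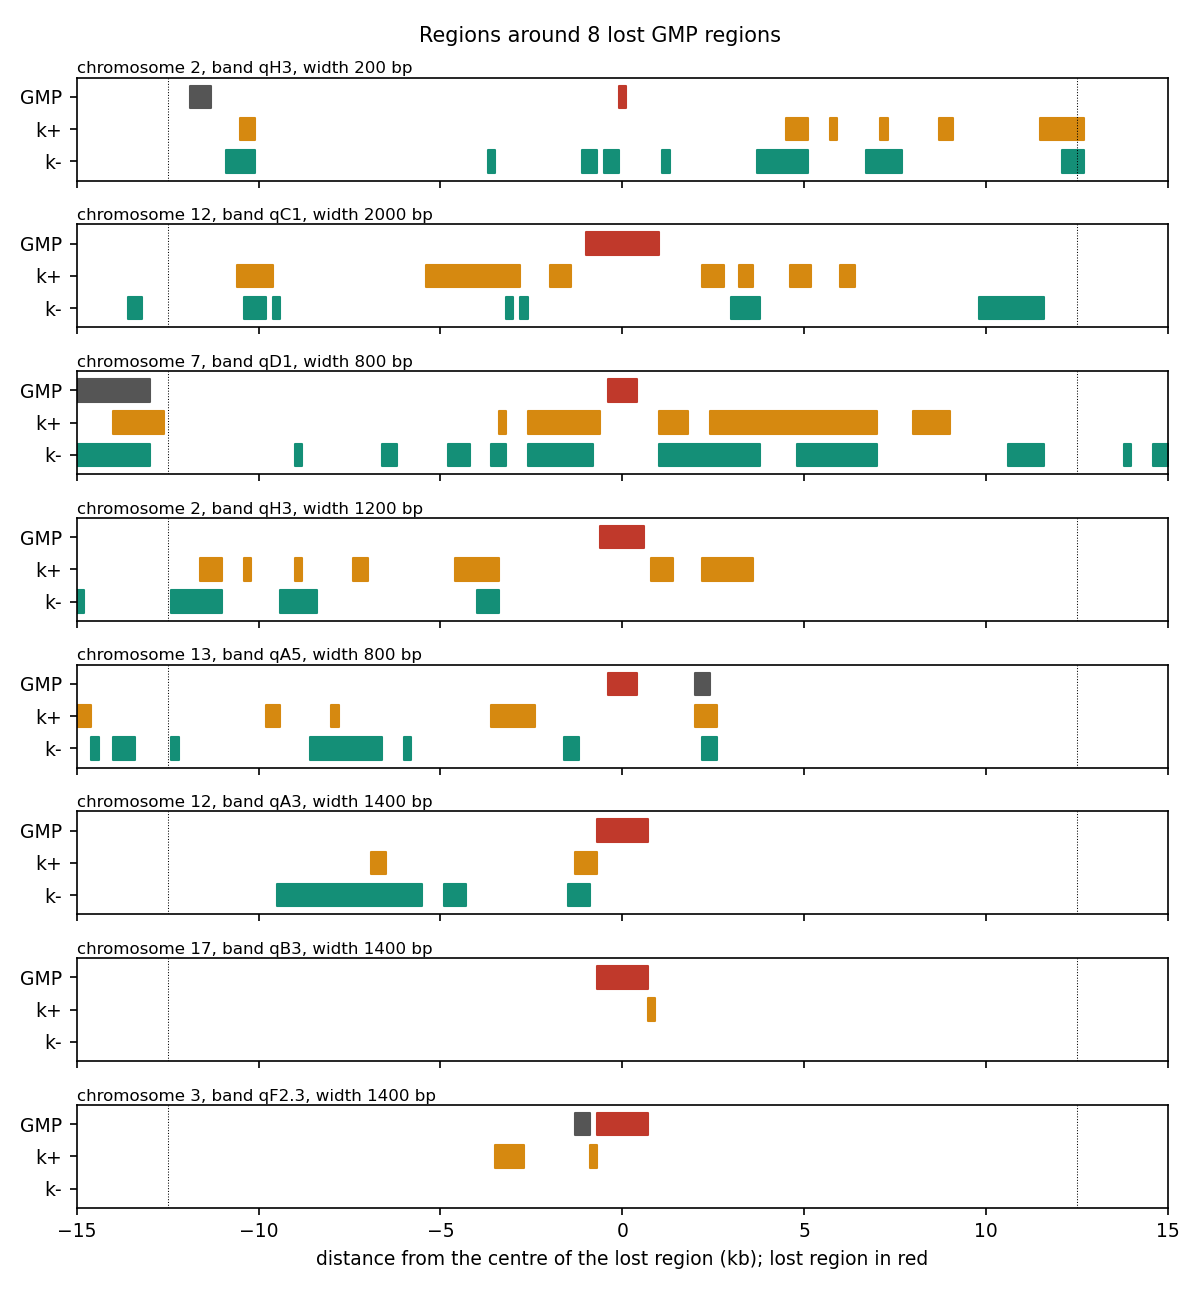
GMP, k+ and k- regions within 15 kb of the 5 lost regions with the most leukemia neighbours (upper rows) and 3 of the 5 widest that touch a leukemia region (lower rows), by distance in kb from the centre of the lost region, drawn in red. Dotted lines mark 12.5 kb. The upper rows have leukemia regions on both sides. The touching regions on chromosomes 17 and 3 have k+ but no k- in view, and the touching region on chromosome 12 has both.

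The 5 widest regions named here had 1 to 3 leukemia regions within 12.5 kb. That was like all 786, with a median of 2 and quartiles of 1 and 3. Except for 1, their nearest leukemia region was 200 or 400 bp wide, against a median of 600 bp for all 786. The first, chr18:3008601-3011200 in band qA1, measured 2600 bp and lay 2800 bp from a k- region of 200 bp. It lies close to 3004801, the lowest position that a list reached on these chromosomes, and how well reads map there was not tested. The regions chr11:48791401-48793800 in band qB1.2 and chr19:45547001-45549400 in band qC3 were both 2400 bp wide. The first had 1 k- region of 400 bp at 7800 bp, and the second 1 k+ region of 200 bp at 800 bp. The region chr13:21902001-21904200 in band qA3.1, of 2200 bp, had 3 leukemia regions with 1100 bp in reach, the nearest at 7800 bp. Of the 5, only chr2:27356601-27358800 in band qA3, also 2200 bp wide, had a nearest region of more than 400 bp, with k+ at 400 bp and k- at 1000 bp. That neighbour, of 1800 bp and in both lists, was kept, and 3 other GMP regions lay in reach. Another region of 2200 bp, chr8:97488001-97490200, came after these in the order of chromosome names; its one neighbour, a k- region of 600 bp at 8800 bp, was kept.

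Where the nearest leukemia region was widest, the lost region was a narrow piece at its flank. The region chr5:66463201-66463400 in band qC3.1 lay 800 bp from a leukemia region of 8400 bp. On chromosome 1 in band qC1.3, chr1:58773401-58773800 touched one of 7800 bp. The region chr9:123843001-123843200 in band qF4 was 400 bp from one of 7400 bp, and chr14:61354801-61355000 in band qD1 400 bp from one of 6800 bp. These 4 leukemia regions were in both lists and kept. The remaining one, of 6800 bp and touched by chr12:112404001-112404200 in band qF1, was in both lists and gained. The lost regions here were 200 bp wide except for the one on chromosome 1, of 400 bp. Neighbours were chosen for their width, so that width is no finding.

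Groups of the regions were small. Lost regions no more than 12.5 kb apart formed 693 groups with at least 1 of the 786, of which 610 held 1 and 10 held 3 or more. None of the 5 named here held more than 3. The group with the most sequence, chr2:27352801-27358800, had 3 regions of 800 to 2200 bp within 6.0 kb at gaps of 400 to 5600 bp. The group chr11:48889601-48900800 in band qB1.2 had 3 within 11.2 kb, of which 1 touched a leukemia region. On chromosome 8 in band qA1.3, chr8:19878401-19888600 had 3 with 1 k+ region and 1 kept GMP region between them. On chromosome 16, chr16:19966601-19977600 in band qA3 had 3 at gaps of 600 to 1400 bp, with 1 k+ and 2 k- regions in its span. The last, chr7:117976201-117978200 in band qF1, had 3 within 2.0 kb at gaps of 5400 to 6600 bp.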

How the data were processed

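The 6 region lists were deposited by the authors for the whole series, with 3 columns (chromosome, start, end) and no other value, so each region's position is all that was used. Per the submitters' processing notes, BWA, Picard, MACS2, HOMER and deepTools and the build mm9 were used; neither their settings nor the definition of an enhancer is given in the sources used here. Gaps ran from edge to edge against k+ and k-, with 0 for touching regions, and k+ and k- were merged where they overlapped or touched. The code (Python 3.11.15 with SciPy 1.17.1, pandas 2.3.3, NumPy 2.4.6 and matplotlib 3.10.9) was tested on simulated data, and all 1353 gaps matched bedtools 2.31.1. Chromosome bands came from circlize 0.4.16 in R 4.3.3. Shares carry exact Clopper-Pearson 95% intervals, and no test was run, since each group has 1 sample and regions are not replicates. Named were the 5 widest regions, the 5 with the most leukemia neighbours, the 5 with the widest neighbour, the first 3 of the 5 widest that touch and the 5 largest groups, with ties settled by width, then chromosome name in text order and start. Members, comparisons and naming rules were chosen with earlier results of these data known. The gene and promoter tables at hand are for GRCm38, so genes and sequences at the regions were not analysed here, nor was the read signal of the 24 libraries.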

Additional observations from a re-analysis of the deposited data

How the results depend on the processing

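No paired analysis was possible because each combination of cell, time and mark had a single library, and for the same reason no replicate could be left out. Of 109 alternative values, 61 were the same within counting error or, for the number of regions, within a factor of 1.5, and 48 moved; none has a sign to turn. The number of regions, the touching share, the share nearer to k-, the GMP cover and the lost share with near misses kept were chosen as results after the data had been seen. With gaps of 5000 bp, 46.5% of lost and 49.97% of kept regions had a neighbour; 48.5% of members had both lists, 13.5% k+ only, 38.0% k- only, 31.6% neighbours on both sides and 26.4% touched; GMP cover around far regions was 0.394%. With 25000 bp the values were 69.03%, 83.6%, 62.4% for both lists, 28.8% for k- only, 44.9% and 17.8%. The GMP cover was then 0.543% around members and 0.188% around far regions. Cover was measured from the gap of each setting out to 50 kb, so at 5000 and 25000 bp the stretch differed from the main one. Between 25 and 50 kb, the 786 had a GMP cover of 0.555% and the 567 far regions 0.264%. Leukemia regions of at least 800 bp gave 40.9% of lost and 56.7% of kept regions, 52.4% both, 38.5% k- only, 32.5% on both sides, 13.7% touching, 23.3% with a kept nearest region and a GMP cover of 0.762%. The widest k- regions at the number of k+ gave 50.8%, 66.9%, 18.8% k+ only, 23.7% k- only, 53.3% nearer to k-, 18.6% with a kept nearest region and 17.9% touching. GMP regions of at least 400 bp left 521 members, by construction wider (median 600 bp), with 10.6% of nearest regions kept. Leukemia regions that met only narrower GMP regions counted as gained there, which can lower that share by construction. All chromosomes gave 53.6% of lost regions, and a GMP cover of 1.16% and 1.07%. Asking for 50% of both regions counts overlapping regions as lost, which gave 1974 members. There 77.7% of lost and 69.5% of kept regions had a neighbour. Of these members, 71.8% had both lists, 6.74% k+ only, 21.5% k- only, 65.6% a kept nearest region and 48.4% neighbours on both sides. A leukemia region that overlapped a member counted as its neighbour, and as kept through that same GMP region. These values are therefore largely set by construction and are not comparable with the main ones. Near misses kept gave lost shares of 37.5%, 33.9% and 28.7%. Kept regions had neighbours more often than lost ones in the other 7 settings. The opposite order with 50% of both regions cannot be read, since overlapping leukemia regions were counted for lost regions only. Depth behind the lists is unknown, so the effect of calling depth was not tested.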
